A study of Homo sapiens with 6 samples.

Results

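The peaks described here are those in AT-rich DNA from chromatin immunoprecipitation sequencing (ChIP-seq) of plasminogen activator inhibitor-1 (PAI-1) with an anti-PAI-1 antibody. A peak was counted as AT-rich when the 300 bp window centred on its midpoint held 32% or less G plus C in GRCh37, the assembly behind hg19. This rule uses the reference sequence and no measured value, and 36431 of 380031 peaks (9.59%) met it. The libraries came from nuclear extracts of the cell lines UM-UC-3 and RT112, both established human bladder cancer lines, with 2 replicate ChIP libraries per line. No genotype change or treatment is given for either line, so each line stands for 1 unmodified cell line and not for a class of tumours. The labels call the replicates biological without saying how they were grown. The tests below take each library as a unit, although replicates of 1 line are not independent cell lines. They show only whether these libraries went the same way or the lines separated, not how large the spread was. The 2 input libraries were not analysed here.

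PAI-1 is a serine protease inhibitor that blocks the plasminogen activators and is known mainly as a secreted and cytoplasmic protein. AT-rich stretches of the human genome are poor in genes, hold many of the longest genes, and often lie at the nuclear lamina in compact, late-replicating chromatin. Their genes include many that encode adhesion molecules and channels of neurons, and RNA from such genes is usually scarce in epithelial cells.

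Windows from UM-UC-3 are printed first, to show what AT-rich sequence under the strongest reproducible peaks looked like. Peaks were ranked by their scores in both replicates of a line, the score being a −log10 value from the peak caller, of either p or q. In each 300 bp window, read 5′ to 3′ on the plus strand of GRCh37, the capitals mark the longest stretch made of A and T only.
chr12:102811233-102811532: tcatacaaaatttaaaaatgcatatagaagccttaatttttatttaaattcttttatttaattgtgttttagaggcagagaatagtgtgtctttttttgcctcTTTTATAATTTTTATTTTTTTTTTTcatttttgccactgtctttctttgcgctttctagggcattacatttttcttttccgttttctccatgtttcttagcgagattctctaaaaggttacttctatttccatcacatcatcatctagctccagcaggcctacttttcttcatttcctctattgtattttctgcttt
chr3:90300993-90301292: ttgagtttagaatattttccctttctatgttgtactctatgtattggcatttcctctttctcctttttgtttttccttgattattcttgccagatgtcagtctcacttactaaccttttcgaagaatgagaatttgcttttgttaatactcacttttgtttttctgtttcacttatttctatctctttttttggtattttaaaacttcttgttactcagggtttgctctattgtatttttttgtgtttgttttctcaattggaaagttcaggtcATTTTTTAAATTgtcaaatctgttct

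The first of these windows lay under the UM-UC-3 peak at chr12:102811189-102811577 within IGF1, the gene of insulin-like growth factor 1. It was the AT-rich peak with the highest score in both UM-UC-3 libraries, at 64.1 and 61.6. It lay within 3 kb of an annotated transcription start site, and it was overlapped by a peak in both RT112 libraries. The window had 147 T and 64 A, with an A/T stretch of 25 bp. The second lay under chr3:90300968-90301318, with scores of 48.4 and 35.6, in a megabase with 0 protein-coding genes, 770 kb from EPHA3, an ephrin receptor gene. It held 156 T against 55 A. Both printed windows therefore had a strong excess of T over A, with 29.7% G plus C.

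Reproducible RT112 peaks named by the same ranking were chrX:154249568-154249871 within F8, the coagulation factor VIII gene, chr7:44987321-44987558, 14.8 kb from MYO1G, and chr18:51506397-51506733, 171 kb from MBD2. Their RT112 scores ranged from 19.3 to 35.2, and none overlapped a UM-UC-3 peak. The other UM-UC-3 peaks were chr11:28055288-28055530 in an intron of KIF18A, a mitotic kinesin gene, chr3:11144067-11144284, 34.6 kb from HRH1, and chr3:172617468-172617743 in an intron of SPATA16. Their UM-UC-3 scores ranged from 31.6 to 37.6, and none overlapped an RT112 peak. Of the 8 peaks named here, only that in IGF1 was overlapped in the other cell line.

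AT-rich peaks made up 6.60% of RT112 replicate 1 (6365 of 96423 peaks), 5.11% of RT112 replicate 2 (3080 of 60227), 12.1% of UM-UC-3 replicate 1 (13224 of 109287) and 12.1% of UM-UC-3 replicate 2 (13762 of 114094). Of 9528558 windows of 300 bp that tile the genome without unknown bases, 16% were AT-rich. All 4 libraries were below the genome, at 0.413, 0.320, 0.757 and 0.755 of its share, in the library order just used, which is kept below. The mean difference from the genome was −7.01 percentage points, and an exact sign-flip permutation test over the 4 libraries gave p = 0.125, the smallest value it can give. In RT112 the share was 5.86% ± 1.05 (SD, n = 2) and in UM-UC-3 12.1% ± 0.0271 (SD, n = 2), a difference of 6.22 points or 2.06-fold. The replicates of the lines did not overlap, and the exact permutation test gave p = 0.333, the smallest value that 2 against 2 libraries allow. RT112 replicate 2 had both the fewest peaks and the lowest AT-rich share. The depth of the single libraries is unknown, and its part in these shares was not tested.

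The shortfall grew as the DNA became richer in A and T. Windows with 24% or less G plus C held 0.0605, 0.0271, 0.208 and 0.206 of the peaks that their share of the genome would give. From 28% to 30% the ratios were 0.418, 0.309, 0.803 and 0.810, and from 30% to 32% they were 0.583, 0.480, 0.928 and 0.919. RT112 was below UM-UC-3 in each of these classes. Between 34% and 36% the ratio was 1.13 and 1.14 in UM-UC-3, above the genome, while RT112 was below it at 0.915 and 0.850. Only 8 peaks in all had 20% or less G plus C, with 2, 0, 1 and 5 in the 4 libraries. Peaks were also scarce in GC-rich DNA, so a shortfall was not particular to AT-rich DNA. From 58% to 60% G plus C the ratios were 0.269, 0.275, 0.261 and 0.265. Within the AT-rich peaks the mean G plus C was 29.99%, 30.2%, 29.6% and 29.6%, against 28.9% for AT-rich genome windows.

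The limit itself separated similar peaks. At exactly 32% G plus C the 2 highest scores were 26.1 and 24.4 for RT112, and 39.8 and 37.6 for UM-UC-3. At 32.3%, just outside, they were 21.0 and 20.5 for RT112, and 49.9 and 46.2 for UM-UC-3. Similar numbers of peaks lay at either value, 1152 and 1165 for RT112, and 2542 and 2585 for UM-UC-3.

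The low AT-rich share was largely local to the peaks. Around all peaks of RT112 replicate 1 the share of AT-rich windows rose from 6.60% at the midpoint to 8.91% at 300 bp, 12.3% at 1 kb and 14.2% at 5 kb. In RT112 replicate 2 it rose from 5.11% to 8.34%, 11.9% and 14% over the same distances. At 100 kb it was 14.6% and 14.4%, still under the genome's 16%. UM-UC-3 started at 12.1% in both libraries, reached 15.4% and 15.5% at 1 kb, and came to 15.9% and 16% at 100 kb. Against windows 5 kb beside the peaks of the same library, the mean difference was −6.03 percentage points.

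**Figure D1:**
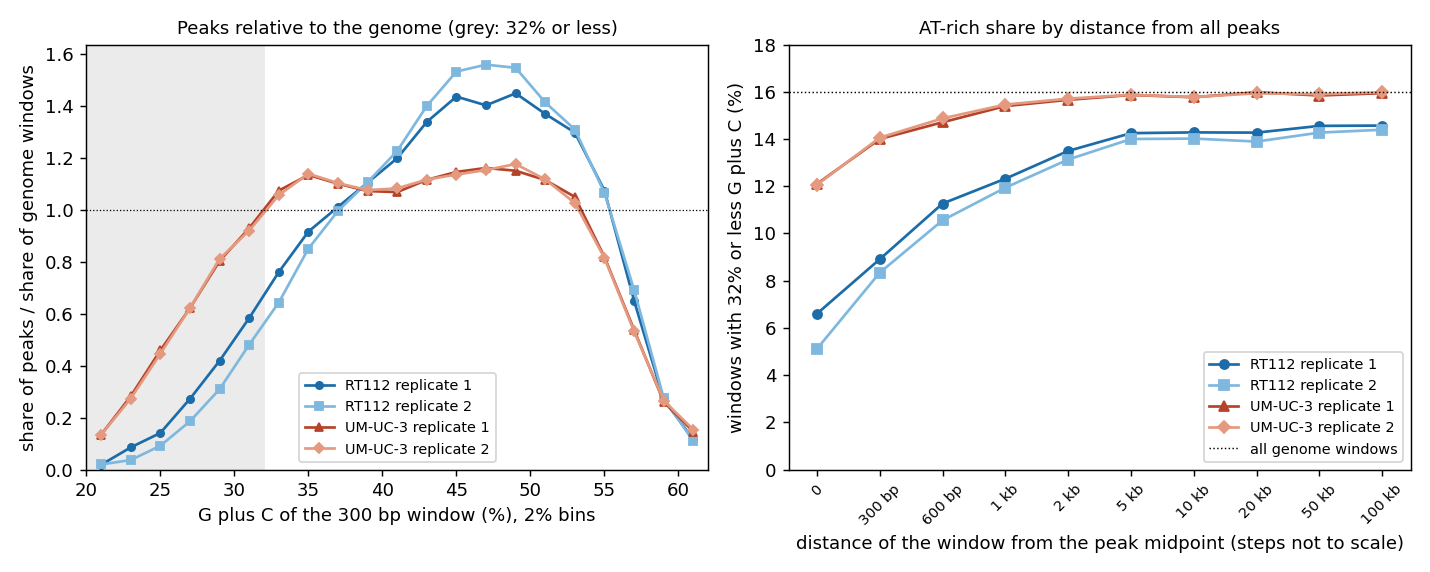
Left, the share of peaks divided by the share of genome windows (y axis) in 2% bins of G plus C (x axis), 1 line per library, with the AT-rich range in grey and equality dotted. Right, the percentage of AT-rich windows (y axis) by distance from the midpoint of all peaks (x axis, steps not to scale), with the genome share of 16% dotted; the libraries start at 6.60%, 5.11%, 12.1% and 12.1% and rise with distance.

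The surroundings of AT-rich peaks were less AT-rich than those of AT-rich DNA in general. At 300 bp from their midpoint 30.3%, 30.5%, 37.2% and 37.7% of windows were again AT-rich, against 40.8% beside AT-rich genome windows. Over 100 kb the median G plus C was 37.7%, 37.8%, 37.4% and 37.4% around AT-rich peaks, close to the 37.1% around AT-rich windows. Around the other peaks it was 40.7%, 40.8%, 40.2% and 40.2%. AT-rich peaks thus lay in AT-rich regions of that scale, in every library.

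High scores were less frequent among AT-rich peaks. A score of 10 or more was reached by 5.59%, 3.77%, 4.62% and 4.62% of them (356, 116, 611 and 636 peaks), against 10.4%, 9.02%, 9.78% and 9.80% of the other peaks. The mean difference was −5.10 points, lower in 4 of 4 libraries, with an exact sign-flip permutation p of 0.125. Among peaks with such scores the AT-rich share was 3.66%, 2.20%, 6.11% and 6.08%. The highest AT-rich score was 58.6, 37.1, 64.1 and 61.6, and the highest score of any other peak was 127, 115, 91.3 and 83.6.

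The typical AT-rich peak had a score close to that of the typical other peak. Median scores were equal in RT112, at 3.80 in replicate 1 and 4.09 in replicate 2 for either kind. In UM-UC-3 they were 3.88 against 4.01 and 3.85 against 3.997. The mean difference of the medians was −0.07. An exact sign-flip permutation test over the 4 libraries gave p = 0.5, the smallest value possible with no difference in the 2 RT112 replicates. The mean difference was −0.31 at a limit of 35% G plus C and −0.0098 at 30%. Many peaks had the same score, which limits what equal medians can show. The 90th percentile was 7.43, 7.90, 8.09 and 8.05 for AT-rich peaks and 10.1, 9.32, 9.90 and 9.79 for the others. Median widths were 289, 263, 271 and 267 bp for AT-rich peaks and 294, 265, 275 and 270 bp for the others.

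AT-rich peaks were found again in the other replicate less often. In RT112 replicate 1, 26.4% overlapped a peak of the other replicate by at least 1 bp, against 39.0% of other peaks and 38.2% of all peaks. In RT112 replicate 2 it was 54.1% against 61.7%, with 61.3% of all peaks. For UM-UC-3 it was 66.3% against 76.0% in replicate 1 and 63.9% against 72.8% in replicate 2, with 74.9% and 71.7% of all peaks. The mean difference was −9.73 percentage points, lower in 4 of 4 libraries (exact sign-flip permutation p = 0.125), although the libraries of a line share their overlaps and are not independent here. When a library was cut into 10 groups by score, AT-rich peaks were below the others in 10, 9, 10 and 10 of them. Within these groups the mean difference was −7.67, −4.29, −5.66 and −5.15 points, smaller than the −12.7, −7.56, −9.73 and −8.96 over all scores. The exception was a high-scoring group of RT112 replicate 2, where AT-rich peaks were 2.34 points above the others.

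**Figure D2:**
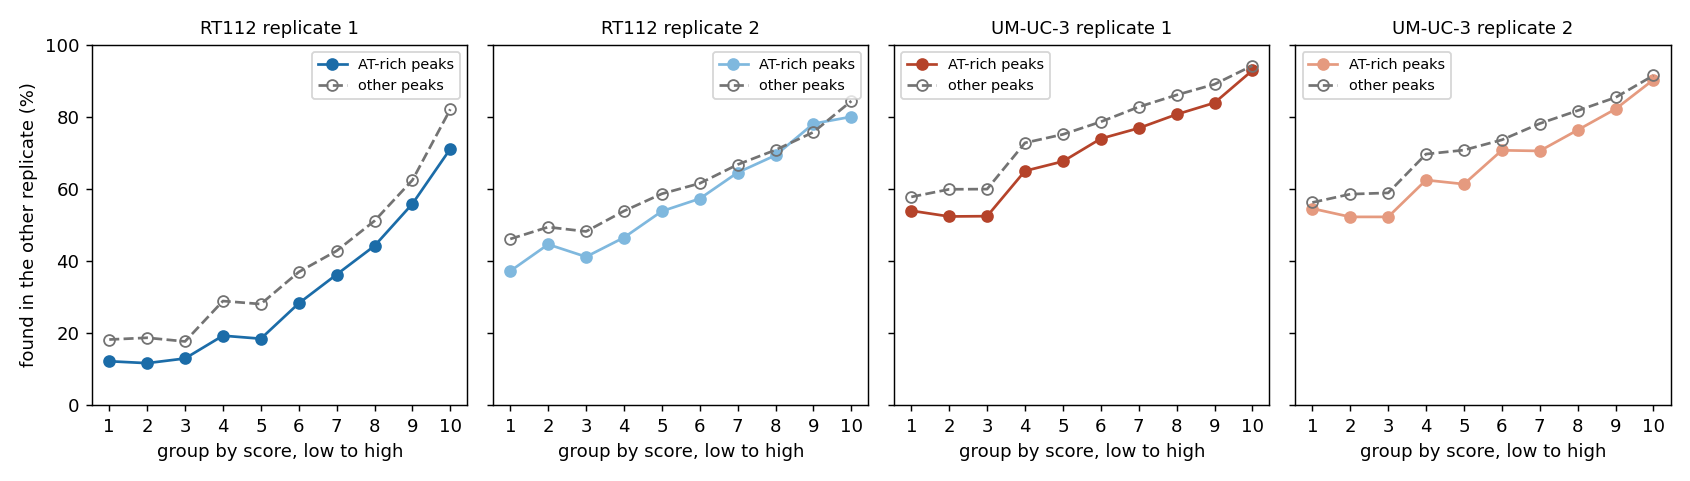
Percentage of peaks that overlap a peak of the other replicate (y axis) in 10 groups of increasing score (x axis), 1 panel per library, filled points for AT-rich peaks and open points for other peaks. Sharing is higher in the highest-scoring group than in the lowest in all panels, and AT-rich peaks lie below the others in 39 of 40 groups.

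For AT-rich peaks found again, the ends matched about as often as for other peaks. The overlapping peak was itself AT-rich in 86.0%, 86.7%, 94.1% and 93.9% of cases. Both ends agreed to within 1 bp for 47.2% and 47.6% of shared AT-rich peaks in RT112 and 69.8% in either UM-UC-3 library. For other shared peaks these figures were 45%, 44.9%, 69.2% and 69.2%. Among all peaks found in the other replicate, AT-rich ones made up 4.56%, 4.52%, 10.7% and 10.7%, and among those not found again 7.87%, 6.06%, 16.2% and 15.4%. The line difference was therefore present among reproducible peaks too.

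Few AT-rich peaks were shared between the cell lines. In UM-UC-3, 2.65% of AT-rich peaks in either library overlapped a peak of at least 1 RT112 library, against 6.44% and 6.36% of other peaks and 5.98% and 5.91% of all. In RT112 the shares were 5.88% against 7.11% in replicate 1 and 7.31% against 7.75% in replicate 2, with 7.02% and 7.73% of all peaks. Averaged over both libraries of the other line, the difference was −1.82 points, again lower in 4 of 4 libraries (exact sign-flip permutation p = 0.125). The same overlaps are counted from both lines, so these 4 values are not independent. With a reciprocal overlap of 50% the difference was −1.01 points. For RT112 the main value was −0.94 ± 0.393 and for UM-UC-3 −2.70 ± 0.0169 (SD, n = 2 each). Peaks of both lines were scarce in AT-rich DNA, at 0.413 and 0.320 of its genome share for the RT112 replicates. For the UM-UC-3 replicates the values were 0.757 and 0.755. AT-rich peaks therefore had fewer peaks of the other line to meet than other peaks had. Overlap by chance was not computed, and the part of this scarcity in the lower sharing was not tested.

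Merged over libraries, the AT-rich peaks formed 26452 separate loci, of which 16687 (63.1%) came from 1 library only. A further 8122 were shared by the UM-UC-3 replicates alone and 1361 by the RT112 replicates alone. AT-rich peaks from all 4 libraries met at 39 loci on 16 chromosomes, 11 of them inside a protein-coding gene. A peak of any base composition in each of the other 3 libraries was met by 1.35%, 2.50%, 0.711% and 0.603% of AT-rich peaks, against 2.23%, 3.43%, 2.03% and 1.96% of other peaks. The locus with the highest mean score, picked after the values were seen, was chr5:67903562-67904421, 306 kb from PIK3R1, a regulatory subunit gene of phosphoinositide 3-kinase. Its scores were 7.43, 6.56, 25.7 and 18.1, higher in UM-UC-3. The next was chrX:70706670-70706961 within TAF1, which encodes a subunit of the general transcription factor TFIID, with scores of 2.76, 2.97, 27.6 and 18.1. Both RT112 scores of this locus were below the median AT-rich scores of those libraries, 3.80 and 4.09, so its rank came from UM-UC-3.

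By gene annotation, AT-rich peaks fell where AT-rich DNA lies. Introns held 46.1%, 46.9%, 46.1% and 46.2% of them, against 45% of AT-rich windows, a mean difference of 1.30 points. Distal intergenic DNA held 38.5%, 38.9%, 38.4% and 38.0%, against 37.8%, a mean difference of 0.63 points. No protein-coding gene covered the midpoint of 59.9%, 61.4%, 60.2% and 60.1% of AT-rich peaks and 59.5% of AT-rich windows. The intron and distal shares were higher in 4 of 4 libraries, with an exact sign-flip permutation p of 0.125 each. With protein-coding genes only, the differences were 0.51 points for introns and 1.11 for distal DNA, and with the windows weighted to the G plus C of the AT-rich peaks, a setting chosen after the data were seen, 0.90 and 1.47. Against windows 5 kb beside the peaks the distal difference was 0.19 points and turned negative in RT112 replicate 2, at −0.10. Promoter regions, taken as 3 kb on each side of a transcription start site, held 11.7%, 11%, 11.6% and 11.7% of AT-rich peaks against 12.9% of AT-rich windows.

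AT-rich peaks were less frequent in gene-poor DNA than AT-rich windows were, but more frequent there than other peaks. The 1 Mb stretches with 0 protein-coding genes held 13.8%, 14.3%, 15.4% and 15.2% of AT-rich peaks. They held 6.71%, 6.72%, 7.48% and 7.48% of other peaks, 16.4% of AT-rich windows and 8.77% of all windows. Of AT-rich windows, 47.1% lay in 1 Mb stretches with at most 2 protein-coding genes. The share of AT-rich peaks there differed by −5.26 ± 0.499 points for the RT112 libraries and by −2.84 ± 0.00597 points for UM-UC-3 (SD, n = 2 each). The mean was −4.05 points, lower in 4 of 4 libraries (exact sign-flip permutation p = 0.125). Stretches with 0 genes held 0.842, 0.870, 0.940 and 0.929 of the AT-rich peaks that their AT-rich windows would give, and stretches with 16 or more genes held 1.27, 1.25, 1.22 and 1.18. For other peaks, set against windows over 32% G plus C, the ratios in stretches with 16 or more genes were 0.786, 0.808, 0.827 and 0.829, below 1 in all 4 libraries. Those windows include GC-rich DNA, where peaks were also scarce, and were not weighted to the G plus C of the other peaks. The part of base composition in these ratios was not tested.

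The size of the difference from AT-rich windows in gene-poor stretches depended on the background. Against windows 5 kb beside the peaks the mean was −0.96 points, and with AT-rich windows weighted to the G plus C of the AT-rich peaks it was −2.52, both lower in 4 of 4 libraries.

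**Figure D3:**
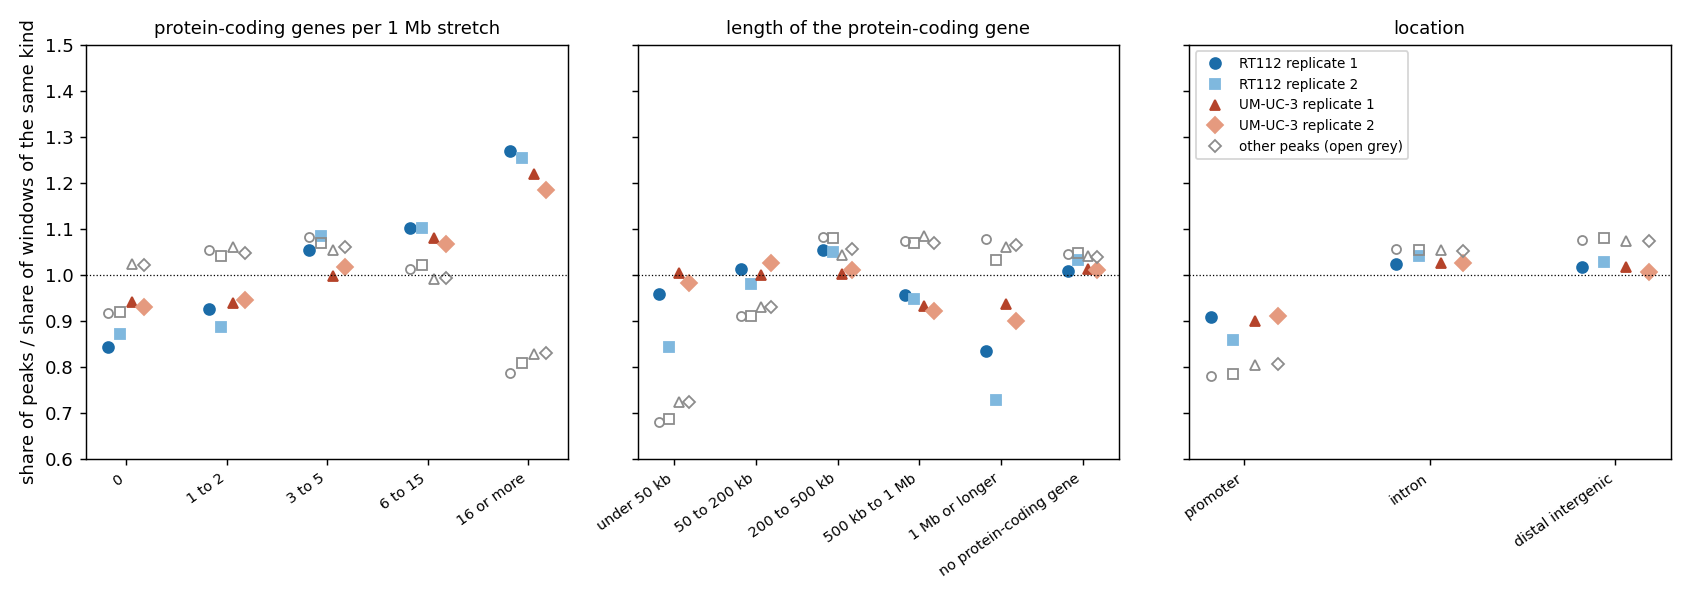
Share of AT-rich peaks divided by the share of AT-rich genome windows (filled coloured points, y axis) by the number of protein-coding genes in the 1 Mb stretch, by length of the protein-coding gene and by location (x axes), 1 point per library. Open grey points give the other peaks over the other windows. In stretches with 16 or more genes AT-rich peaks reach 1.18 to 1.27 while the other peaks lie below 1. The windows behind either ratio were not weighted by G plus C.

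Single stretches nevertheless held dense groups of AT-rich peaks, some in 1 cell line and some in both. Stretches were ranked by the lower of the 2 replicate counts of a line, without asking whether the peaks overlapped. The leading 1 Mb stretch in UM-UC-3, found after seeing the values, was chr5:12000001-13000000, which holds 0 protein-coding genes. It had 28 AT-rich peaks in either UM-UC-3 library and 2 and 1 in the RT112 replicates. In chr5:24000001-25000000, which holds CDH10, a type II cadherin gene, the RT112 counts were 12 and 6, and the UM-UC-3 counts 27 and 33. For RT112 the leading stretch was chrX:77000001-78000000, with 10 and 8 AT-rich peaks there, against 2 and 4 in UM-UC-3. It holds 9 protein-coding genes, among them ATRX, a chromatin remodeller, and PGK1, a glycolytic enzyme. Of the 5 leading RT112 stretches, 3 had similar counts in both lines, among them chr8:106000001-107000000, which holds ZFPM2, with 8, 7, 9 and 10. The median over all 1 Mb stretches was 2, 1, 4 and 4 AT-rich peaks.

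By chromosome, AT-rich peaks were sparse on chromosome 4, at 0.524 ± 0.00152 of the share of its AT-rich windows in RT112 and 0.678 ± 0.0180 in UM-UC-3 (SD, n = 2 each). Other peaks were sparse there too, at 0.624 and 0.777. Chromosome Y, left out of the figure, was sparser still, with 2, 0, 1 and 1 AT-rich peaks among 11, 7, 9 and 9 peaks. On chromosome 5 the RT112 ratio was 1.11 ± 0.0225 and the UM-UC-3 ratio 1.37 ± 0.0222, and for other peaks 1.11 and 1.32. On chromosome 19, which is dense in genes, AT-rich peaks had ratios of 1.37 and 1.20 and other peaks 0.712 and 0.787. The AT-rich peaks there numbered only 48, 22, 82 and 92. Chromosome 22, also dense in genes, differed in RT112. AT-rich peaks had ratios there of 0.677 in RT112 and 1.08 in UM-UC-3, from 14, 8, 55 and 48 peaks. The ratios of other peaks on chromosome 22 were 0.787 and 0.775. The number of chromosome copies was not measured, and its part in these ratios was not tested, nor was that of base composition.

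**Figure D4:**
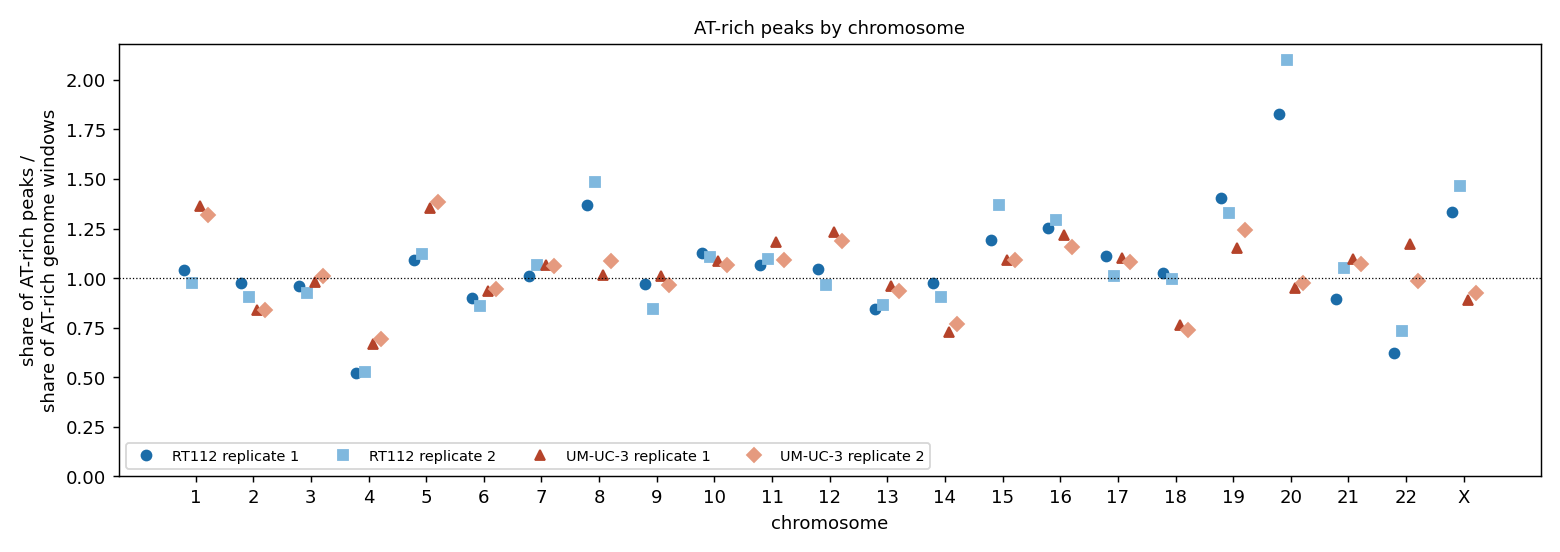
Share of AT-rich peaks divided by the share of AT-rich genome windows (y axis) for chromosomes 1 to 22 and X (x axis), 1 point per library, with equality dotted. Both RT112 replicates stand above 1 on chromosomes 20 and X, where both UM-UC-3 replicates lie just below 1.

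Long genes collected AT-rich peaks in proportion to their AT-rich DNA or below it. Genes of 500 kb or longer held 11.7% of AT-rich windows, and their share of AT-rich peaks differed by −1.40 ± 0.404 points for the RT112 libraries and by −0.91 ± 0.185 points for UM-UC-3 (SD, n = 2 each). The mean of −1.16 was lower in 4 of 4 libraries (exact sign-flip permutation p = 0.125) and was −0.45 against windows 5 kb beside the peaks. Genes of 1 Mb or longer held 0.834, 0.728, 0.936 and 0.898 of the AT-rich peaks that their AT-rich windows would give.

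Many long genes were hit all the same. An AT-rich peak in both replicates was present in 701 of 20163 protein-coding genes in RT112 (3.48%) and in 2297 in UM-UC-3 (11.4%). Of the 324 genes of 500 kb or longer, 161 (49.7%) had one in RT112 and 273 (84.3%) in UM-UC-3. These genes contained a median of 429.5 AT-rich windows, against 3 over all protein-coding genes. Of the 71 genes of 1 Mb or longer it was 52 (73.2%) and 68 (95.8%).

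The genes with the most AT-rich peaks in both UM-UC-3 replicates were among the longest. PCDH15, a protocadherin gene of sensory hair cells at chr10:55562531-57387702, had 22 and 23 AT-rich peaks in UM-UC-3, 16 of them in both replicates, and 8 and 1 in RT112. DMD, the dystrophin gene at chrX:31115794-33357726, had 25 and 24 in UM-UC-3, again 16 in both, and 5 and 3 in RT112. CDH18, a type II cadherin gene at chr5:19471405-20575982, had 21 and 23 in UM-UC-3 and 7 and 2 in RT112.

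Next came CNTNAP2, a neurexin family gene, with 20 and 19 AT-rich peaks in UM-UC-3 against 6 and 1 in RT112. NAALADL2 had 15 and 18 against 5 and 3, and PTPRD, a receptor tyrosine phosphatase gene, 19 and 20 against 8 and 3. CSMD3 had 18 and 17 against 7 and 6. The remaining genes were GPC5, a glypican gene, EYS, which encodes a protein of photoreceptors, and VPS13B, a lipid transfer gene. In each of these 10 genes both UM-UC-3 counts were above both RT112 counts, but the genes were chosen by their UM-UC-3 counts, and UM-UC-3 had 2.86 times as many AT-rich peaks as RT112 on average. PCDH15 held 2440 AT-rich windows and CDH18 1402, so that in UM-UC-3 replicate 1 they had 9.02 and 15 AT-rich peaks per 1000 AT-rich windows. The library as a whole had 8.69, and chromosome 5, which holds CDH18, had 11.7.

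The genes chosen by their RT112 counts had few AT-rich peaks each, and for most of them the raw counts of the lines overlapped. ZFPM2, the gene of a cofactor of GATA factors at chr8:105602961-106816767, led with 9 and 8 AT-rich peaks, 5 of them in both RT112 replicates, and had 8 and 9 in UM-UC-3. Per 1000 AT-rich windows this was 9.56, 8.50, 8.50 and 9.56, against 4.18, 2.02, 8.69 and 9.04 for the libraries as a whole, so that ZFPM2 stood above the library rate in RT112, for which it was chosen, and near it in UM-UC-3. Chromosome 8, which holds ZFPM2, had 5.72 and 3.01 in the RT112 replicates. TMEM74 had 4 and 3 AT-rich peaks in RT112 and the same counts in UM-UC-3. XPR1, which encodes a phosphate exporter, had 5 and 3 against 3 and 2 in UM-UC-3. ADK, the adenosine kinase gene, was the only one of the 10 with both RT112 counts above both UM-UC-3 counts, at 4 and 5 against 2 and 2. The other genes were RP1, CHODL, TMEM232, THSD7A, STXBP5L and IL1RAPL2, each with 3 AT-rich peaks in both RT112 replicates.

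**Figure D5:**
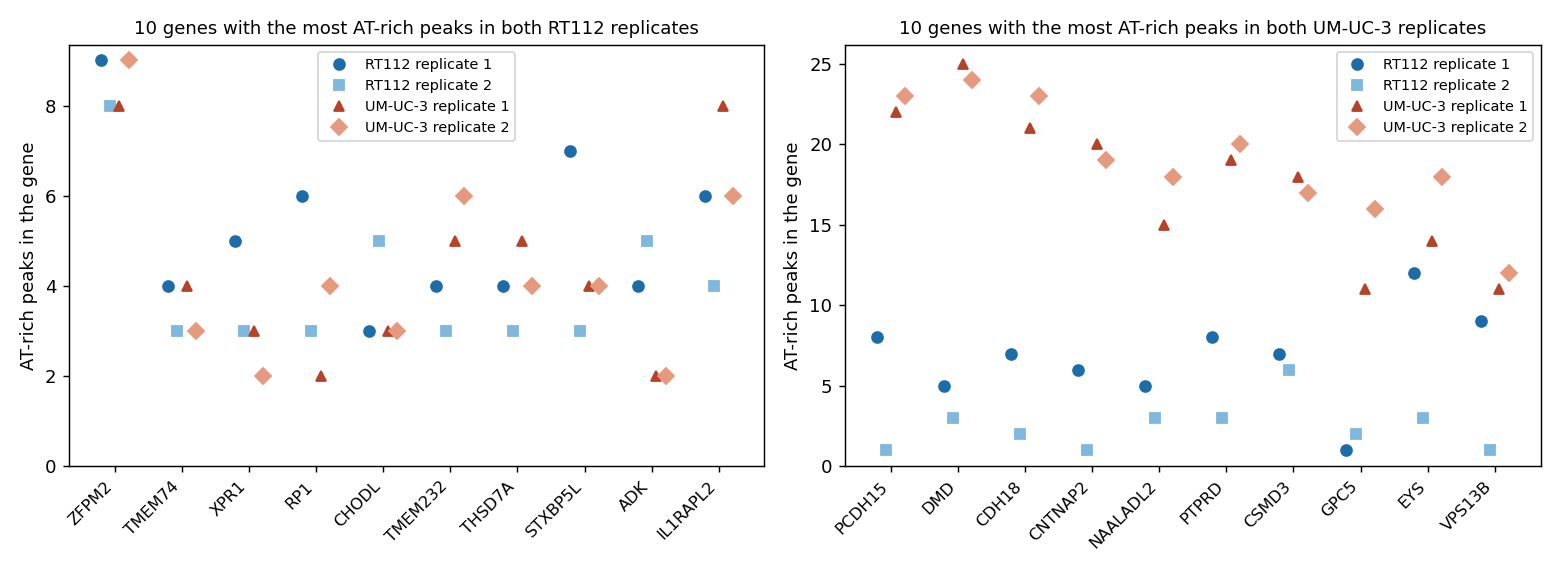
Number of AT-rich peaks (y axis) in the 10 protein-coding genes with the most AT-rich peaks found in both replicates of RT112 (left) and of UM-UC-3 (right), 1 point per library. On the left the libraries of the lines are intermixed for most genes, and on the right PCDH15, DMD and CDH18 have 21 to 25 in UM-UC-3 and 1 to 8 in RT112.

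Families of long neuronal genes, of genes in AT-rich clusters and of short housekeeping genes were then counted. Among 77 genes of neuronal adhesion molecules and synapse organisers, 29 in RT112 and 41 in UM-UC-3 had an AT-rich peak in both replicates, beside 3.48% and 11.4% of all protein-coding genes. The median length of these genes was 388 kb, against 27.2 kb over all genes. Counted per 1000 AT-rich windows, the family had 3.15 and 1.31 AT-rich peaks for RT112, and 7.25 and 7.48 for UM-UC-3, where all genes had 4.20, 1.93, 8.52 and 8.92. The family was thus below all genes per AT-rich window in 4 of 4 libraries.

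Of 13 type II cadherins, 5 in RT112 and 8 in UM-UC-3 had an AT-rich peak in both replicates. Per 1000 AT-rich windows they had 3.84 and 2.40 for RT112, and 13.4 and 13.2 for UM-UC-3. CDH18 and CDH12 held 21 and 20 of the 56 AT-rich peaks in UM-UC-3 replicate 1, and 23 and 15 of the 55 in replicate 2. Both genes lie on chromosome 5, which as a whole had 11.7 and 12.5 AT-rich peaks per 1000 AT-rich windows in UM-UC-3. Of 18 ionotropic glutamate receptor genes, 3 (16.7%) and 11 (61.1%) were hit, beside 3.48% and 11.4% of all genes, while per 1000 AT-rich windows they had 2.05, 1.23, 7.16 and 7.98, below all genes in 4 of 4 libraries. Voltage-gated potassium channels had 3 (7.5%) and 11 (27.5%) of 40, with KCNH1 hit in both lines and KCNQ5 at 9 and 7 in UM-UC-3. Per 1000 AT-rich windows they had 3.80, 1.90, 9.50 and 10.8, from 12, 6, 30 and 34 peaks. These rates were below all genes in RT112 and above them in UM-UC-3. Voltage-gated sodium channels had 0 and 2 (20%) of 10, the latter SCN7A and SCN10A, and GABA-A receptors 3 (15.8%) and 4 (21.1%) of 19. Both of these families were below all genes per AT-rich window in UM-UC-3. In RT112 the sodium channels were below them in both replicates. GABA-A receptors were below them in RT112 replicate 1, at 3.69 per 1000 windows, and above them in replicate 2, at 2.76, from 8 and 6 peaks.

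The remaining families were hit at lower or similar shares to all genes, which had 3.48% in RT112 and 11.4% in UM-UC-3. Their median gene lengths were below the 27.2 kb of all genes, except for UGT2 enzymes at 31.6 kb. Of 414 olfactory receptor genes, which encode odorant sensors, 4 (0.966%) in RT112 and 14 (3.38%) in UM-UC-3 had an AT-rich peak in both replicates. Per 1000 AT-rich windows they had 4.43, 2.53, 12.7 and 14.6, above all genes in 4 of 4 libraries but from only 7, 4, 20 and 23 peaks. Bitter taste receptors had 0 and 2 (8.33%) of 24, UGT2 enzymes 0 and 1 (10%) of 10, and type I interferons 0 and 0 of 17. Genes of ribosomal proteins and of histones had 0 and 1 (1.16%) of 86 each. Among 508 ZNF zinc finger genes it was 9 (1.77%) and 41 (8.07%), led by ZNF81 in RT112 and ZNF385D in UM-UC-3.

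In sequence, AT-rich peaks differed from AT-rich DNA in general most in their TA repeats, among the features counted. A run of TA repeated 6 times or more, which reads the same on both strands, was present in 2.12% of AT-rich windows. It was present in 0.126%, 0.195%, 0.280% and 0.327% of AT-rich peaks, which were 8, 6, 37 and 45 peaks. Between 28% and 32% G plus C the shares were 0.112%, 0.187%, 0.231% and 0.286%, against 1.40% of windows, so the low share was present there too. Runs of 10 or more A or 10 or more T were close to the background, at 7.49%, 8.08%, 7.76% and 7.73% against 8.39%. The longest stretch of A and T only averaged 14, 13.9, 14.2 and 14.2 bp against 15.7 bp.

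AT-rich peaks also had more unequal strands. The excess of A over T or of T over A averaged 18%, 19.3%, 17.4% and 17.4% of all A plus T in their windows, against 13.4% in AT-rich windows. The UM-UC-3 windows printed above show such an excess. The hexamer AATAAA, or TTTATT on the other strand, was present in 72.4%, 73.4%, 75% and 74.7% of AT-rich peaks and 74.9% of AT-rich windows. CG dinucleotides averaged 0.970, 0.954, 0.953 and 0.956 per window, against 0.978. These are descriptions of the letters, without a test, and repeats and mappability were not annotated.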

How the data were processed

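The authors carried out ChIP-seq with an antibody against PAI-1 on nuclear extracts, mapped paired reads to hg19 with Bowtie 1.1.1, removed duplicates with Picard and called peaks with MACS2 2.1.0.20140616. FastQC and Trimmomatic are named in the submitters' processing notes. The score the authors deposited was taken to be a −log10 value, either of p or of q; which one, the threshold, and the use of the input as control are not given in the sources used here. A figure legend of the study names a false discovery rate limit for bound probe sets, without tying it to these lists. The methods give an average read number per sample and none per library, and without read counts in the lists no counting interval was computed. Since inputs were not analysed here, effects of base composition on immunoprecipitation, library preparation and mapping cannot be told apart.

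Lines with the same ends were counted once, with the highest score. G plus C was counted in the 300 bp around each midpoint, and the genome was tiled in windows of 300 bp. Location, gene length and gene density came from GENCODE 44 on GRCh37, with 20163 protein-coding genes. Peaks overlapped when they shared at least 1 bp. A gene counted as hit in a line when an AT-rich peak of replicate 1 with its midpoint in the gene overlapped an AT-rich peak of replicate 2. Tests were exact, two-sided permutation tests: sign flips over 4 libraries (smallest p 0.125) and 2 against 2 libraries (smallest p 0.333), so the design cannot reach 0.05. Named genes were the 10 per line with most such peaks, with ties going to the shorter gene, the 2 leading genes of each family, and the 5 peaks per line with the best mean score rank in both replicates; a few of these are not reported here. The AT-rich limit, the gene families and these rules were chosen with earlier results of these data known. Computations used Python 3.11.15, numpy 2.4.6 and pandas 2.3.3, with plots from matplotlib 3.10.9; functions were tested on simulated data.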

Additional observations from a re-analysis of the deposited data

Results flagged for a closer look

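AT-rich peaks moved in opposite directions in the cell lines on chromosome 20, where their share divided by the share of AT-rich windows came to 1.96 ± 0.194 for RT112 and 0.963 ± 0.0171 for UM-UC-3 (SD, n = 2 each). Other peaks there had ratios of 1.66 and 0.907. On chromosome X the ratio of AT-rich peaks was 1.40 ± 0.0927 for RT112 and 0.909 ± 0.0247 for UM-UC-3, and that of other peaks 1.15 and 0.908. Both replicates of RT112 lay above 1 and both of UM-UC-3 below 1, and the difference between the lines was not tested. The number of chromosome copies was not measured.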

How the results depend on the processing

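The 10 tested results were recomputed under alternative settings, which gave 104 pairs of a result and a setting. Of these pairs, 103 had the direction of the main value and none reversed it. The exception was the difference of median scores, which was 0 among peaks with a score of at least 5 (exact sign-flip permutation p = 1). Taking the replicate numbers as a block left the line difference in AT-rich share at 6.22 points, with an exact p of 0.5, the smallest that 2 pairs allow. Leaving out 1 library could not reverse a direction: no library opposed a main value, and the lines' AT-rich shares did not overlap. The block could not change the line difference either. Those pairs are in the count but show no stability. No test can reach 0.05 with these libraries, so a kept direction in the other settings is the only stability shown. Leaving out each library in turn gave differences from the genome share of −8.05 to −5.72 points and line differences of 5.48 to 6.97. The line difference was 3.75 points at a limit of 30% G plus C and 10.2 points at 35%. Windows 5 kb beside the peaks gave −0.96 points for gene-poor stretches, −0.45 for long genes and 0.19 for distal intergenic DNA (exact p = 0.25 for the last), against −4.05, −1.16 and 0.63 in the main comparison. Weighting AT-rich windows to the G plus C of the AT-rich peaks, chosen after the data were seen, gave 1.47 points for distal intergenic DNA and 0.90 for introns. A reciprocal overlap of 50% gave −1.01 points for sharing between lines, and counting protein-coding genes only gave 0.51 points for introns and 1.11 for distal intergenic DNA. Stretches with 0 genes gave −1.71 points and genes of 1 Mb or longer −0.73.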
